A study of Mus musculus with 13 samples.

Results

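The 8 genes described here encode enzymes that add or remove methyl groups on histone H3 in mouse oocytes. They are Kdm1a, Kdm1b and Kdm5b, which remove methyl groups from lysine 4 (H3K4), Suv39h1, Setdb1, Ehmt1 and Ehmt2, which write methylation on lysine 9 (H3K9), and Setd2, which writes it on lysine 36 (H3K36). They were chosen by symbol, and all 8 were found among the 23235 symbols of the deposited table. All 8 also passed the filter on low values, which asked for 1 or more in any 2 of the 4 columns and kept 14240 genes.

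The libraries held polyadenylated RNA from oocytes that had been split by micromanipulation into nuclei and cytoplasms, 10 of either per library, and were made with Smart-seq2, which primes on the poly(A) tail and suits very small inputs. The labels list WT nuclei and WT cytoplasms at day 14 with 2 libraries each, WT nuclei at day 21 with 3 and WT cytoplasms at day 21 with 2. MTR4-null nuclei and MTR4-null cytoplasms, both at day 21, have 2 libraries each. MTR4, encoded by Skiv2l2, is the RNA helicase that delivers nuclear RNA to the exosome for decay. The labels do not say how the null allele was made or in which cells.

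The table held 1 column per genotype and compartment and no column for a single library, so no value below has a replicate error and no test could be made. The WT columns name no day, so genotype and age cannot be told apart. The columns were not on 1 scale: their totals ran from 594034 (WT nucleus) to 6637350 (WT cytoplasm). Values are therefore given as deposited (FPKM by the table's name, a unit per transcript length). Differences are on the log2 scale after the columns had been rescaled to the median gene (by median ratios) and 1 had been added, and are called relative. A relative difference describes a gene against the median gene, and fewer cells of a type and less RNA per cell cannot be told apart in it. A gene is called higher or lower at a relative difference of at least 2-fold. For Skiv2l2 itself WT nuclei held 13.3, null nuclei 3.54, WT cytoplasms 187 and null cytoplasms 4.36, so the targeted gene was lower in both null columns. All 12 oocyte markers were above 0 in all 4 columns. In null nuclei 4 of them were called higher and 2 lower (median relative difference -0.056). In null cytoplasms 1 was higher (Sohlh1) and 2 lower (Nobox and Zp1), with a median of -0.48. Among all kept genes 25.8% were called higher and 16.2% lower in null nuclei, and 24.2% and 18.6% in null cytoplasms. The 17 markers of granulosa cells, which surround the oocyte, summed to between 0.00271% (null nucleus) and 0.0104% (null cytoplasm) of a column's total. Of these, 3 were at 0 in the WT nucleus (Amh, Amhr2, Lhcgr), 4 in the null nucleus (Foxl2, Inha, Inhbb, Lhcgr) and 0 in either cytoplasm. Of the 14 granulosa markers that passed the filter, 2 were called higher and 3 lower in null nuclei (median relative difference -0.27). In null cytoplasms 5 were higher, among them Wt1 (2.81), Hsd3b1 (2.13) and Kitl (1.66), and 1 was lower (median 0.37, beside 0.38 for the 90 related genes described further on). Their part in the results below was not tested.

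Methylation of histone H3 is set as the oocyte grows. H3K4 and H3K36 methylation mark chromatin that is open or transcribed, while H3K9 methylation marks silent chromatin and keeps transposable elements off. KDM1B removes H3K4 methylation in growing oocytes and is needed there for DNA methylation at many imprinted genes. SETD2 deposits the H3K36 trimethylation that guides DNA methylation over transcribed genes in oocytes. SETDB1 and the EHMT1-EHMT2 pair write H3K9 methylation in the oocyte, and SUV39H1 is best known for H3K9 trimethylation at pericentromeric repeats.

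Expression differed widely among the 8 enzymes. Within a column, where levels can be compared per length, the highest member was 80.6 times the lowest for WT nuclei, 71.2 times for null nuclei, 57.0 times for WT cytoplasms and 97.1 times for null cytoplasms. Suv39h1 led in the WT cytoplasm (608), followed by Kdm1b (549) and Setdb1 (399.8). The order then ran through Kdm1a (177), Setd2 (114), Ehmt1 (109.8), Ehmt2 (22.3) and Kdm5b (10.7). In the null cytoplasm Kdm1b was first and Suv39h1 was sixth of the 8. Setdb1 led in the WT nucleus and Kdm1b in the null nucleus. Which neighbours in these orders differ beyond their spread is unknown, since there is no spread between libraries; Setd2 and Ehmt1 lay closest in the WT cytoplasm.

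**Figure D1:**
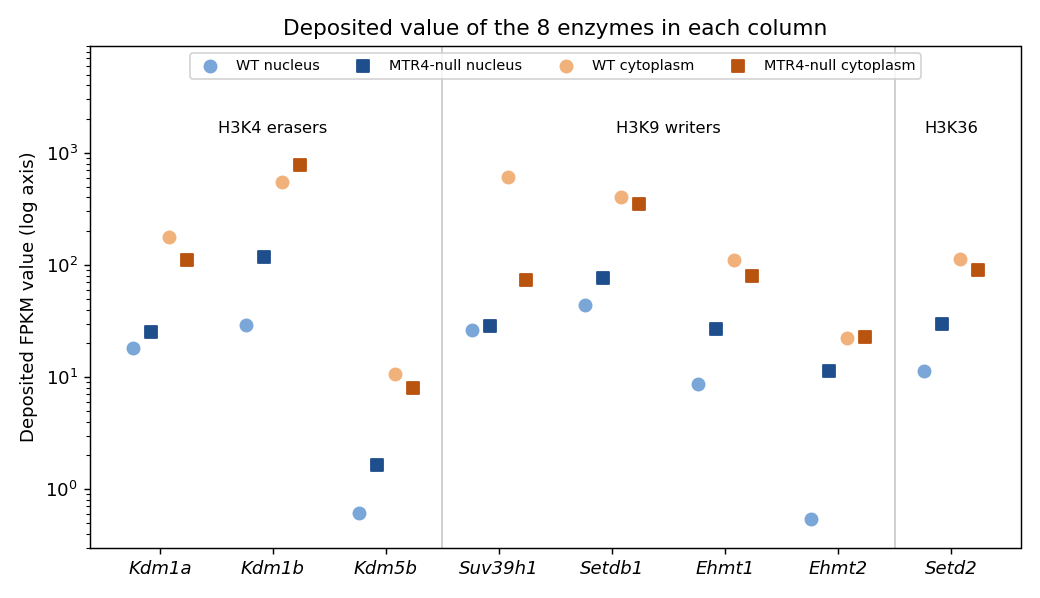
Deposited FPKM value (log axis) of each of the 8 enzymes in WT and MTR4-null nuclei and cytoplasms, 1 point per column and no error bars, grouped by the histone site. Suv39h1 has 608 in the WT cytoplasm against 72.9 in the null cytoplasm, and Ehmt2 has 0.539 against 11.4 in the nuclei.

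The place of a gene among all 14240 kept genes of its column does not depend on how that column was scaled. The median percentile of the 8 members was 68.6 for WT nuclei, 66.5 for null nuclei, 65.3 for WT cytoplasms and 66.3 for null cytoplasms. With the filter used here the enzymes as a group thus sat at much the same height in every column. With at least 1 in all 4 columns, which leaves out Kdm5b and Ehmt2, the null medians lay lower. They were 56.2 and 58.6 in null nucleus and cytoplasm, against 66.5 and 65.6 in WT. Among the 14240 kept genes, single members moved. Kdm1b went from percentile 80.0 to 89.6 between WT and null nucleus and from 85.1 to 95.1 between the cytoplasms. Suv39h1 went from 78.5 to 67.1 and from 86.3 to 63.1. Ehmt2 went from 16.8 to 46.9 in the nucleus and from 34.4 to 39.1 in the cytoplasm. The other 5 moved by less than 8 points in either compartment.

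**Figure D2:**
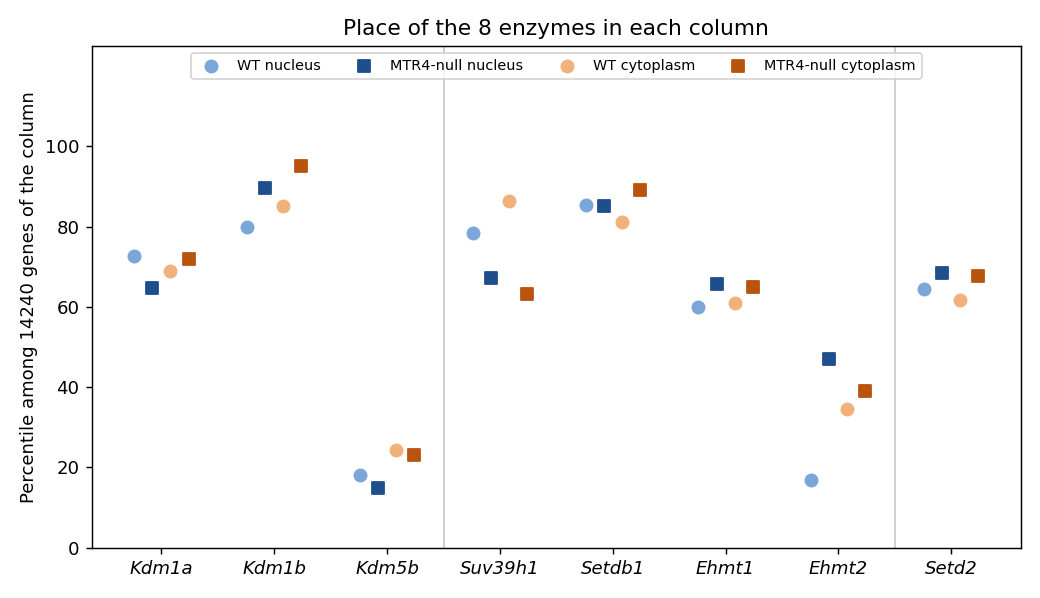
Percentile of each enzyme among the 14240 kept genes of the same column, 1 point per column, with the 3 H3K4 erasers on the left, the 4 H3K9 writers in the middle and Setd2 on the right. Kdm1b has its highest place, 95.1, in the null cytoplasm and Suv39h1 its lowest, 63.1, in that same column.

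The first comparison asked how the polyadenylated RNA of these enzymes differed between null and WT nuclei and between null and WT cytoplasms. In the nucleus 1 of the 8 was called higher (Ehmt2) and 0 lower, against 25.8% higher and 16.2% lower among all kept genes. In the cytoplasm 1 was called higher (Kdm1b) and 1 lower (Suv39h1), against 24.2% and 18.6%. The median relative difference of the members was 0.26 between nuclei and 0.50 between cytoplasms, beside 0.055 for all kept genes in either compartment. On this scale the members' shares did not exceed the background in any direction. On the values as deposited, 4 members reached 2-fold upwards in null nuclei and 0 downwards (46.3% and 3.69% of kept genes). For cytoplasms these counts were 0 and 1 (14.9% and 43.7%).

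**Figure D3:**
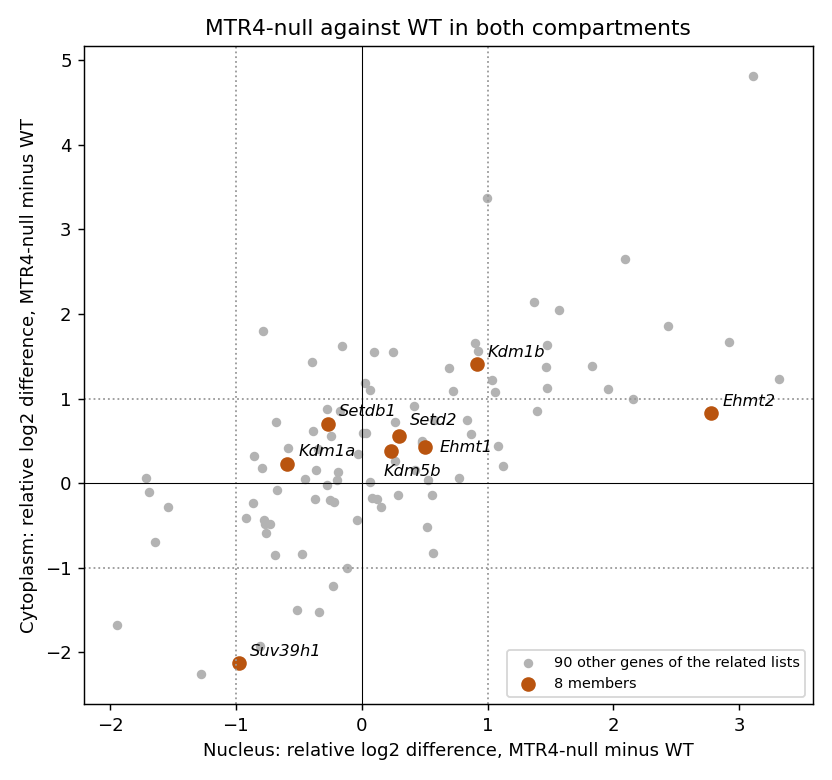
Relative log2 difference of MTR4-null minus WT in the nucleus (x axis) and in the cytoplasm (y axis), with 1 point per gene: the 8 members in orange and 90 other genes of the related lists in grey. Dotted lines mark 2-fold. Ehmt2 lies far to the right (2.78), Kdm1b in the upper part (1.40 on the y axis) and Suv39h1 at the bottom (-2.13 on the y axis).

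Among the H3K4 erasers, Kdm1b, the amine oxidase also called LSD2, had 29.0 in WT nuclei, 117 in null nuclei, 549 in WT cytoplasms and 778 in null cytoplasms. It was thus higher in null in both compartments as deposited. Its relative difference was 0.92 in the nucleus, just under the 2-fold line, and 1.40 in the cytoplasm, a 2.65-fold higher value. The nuclear difference passed 2-fold with quantile normalization (1.19), with scaling on genes of at least 5 in all columns (1.26), with the filter of at least 1 in all columns (1.10) and as deposited (1.98). As deposited the cytoplasmic difference was 0.50, which ends the call; with 6 other settings that rescale the columns or change the added value or the filter it was 1.39 to 1.76. Its relative Kdm1a, or LSD1, the founding histone demethylase, had 18.1, 25.4, 177 and 112 in the same order of columns. Its relative differences were small, -0.59 between nuclei and 0.23 between cytoplasms. The ratio of Kdm1b to Kdm1a within a column is free of the column's scale. It went from 1.60 in WT to 4.61 in null nuclei and from 3.10 in WT to 6.98 in null cytoplasms, so the balance lay further towards Kdm1b in both null columns. In RefSeq, Kdm1b overlaps the gene Dek and Kdm1a overlaps Luzp1, and whether the counting used strand is not given. Dek had relative differences of -0.56 and 0.72 and Luzp1 of 0.40 and 0.097 in nucleus and cytoplasm.

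The printed stretch of the Kdm1b promoter, and those of Suv39h1 and Ehmt2 further on, belong to the 3 members called in a comparison of null with WT. They are RefSeq sequence of GRCm38.p6 and end before the first annotated base of the gene. The search for motifs covered, on both strands, the 250 bases before the most upstream start site among the promoter windows of each gene. For some members the annotated gene begins within these bases. Before it lay 124 bases for Kdm1b, 153 for Setd2, 186 for Kdm1a, 216 for Ehmt1 and 239 for Ehmt2. The rest of such a window lies within the annotated gene. The motifs were the CCAAT box by its name, the GC box spelled as GGGCGG, the TATA box in its form TATAAA, and the E-box of the letters CACGTG. Capitals mark every match. All 8 members had such a window. Kdm1b, chr13:47043249-47043372, plus strand, had 6 GC boxes in the searched window, 1 of them in the stretch shown:
Kdm1b: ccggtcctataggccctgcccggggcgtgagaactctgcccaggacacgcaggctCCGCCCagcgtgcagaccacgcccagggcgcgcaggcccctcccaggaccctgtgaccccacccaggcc

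GC boxes stood in 33.0% of all 27025 windows of this length. The Kdm1b window held 22 CpG sites and 71.6% G and C, beside a median of 6 CpG sites over all windows. A match describes letters and shows no binding.

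Kdm5b, a JmjC-type demethylase of H3K4 trimethylation, was the lowest or second lowest member in every column, with 0.615, 1.65, 10.7 and 8.01. Its relative differences were 0.23 between nuclei and 0.39 between cytoplasms. In RefSeq it overlaps Mgat4e, whose value was not used here. Its close relative Kdm5a had 0.722 in WT nuclei, 8.48 in null nuclei, 6.46 in WT cytoplasms and 31.5 in null cytoplasms, and was called higher in both (2.09 and 2.65). With so low a WT nucleus value the size of the nuclear fold is uncertain. The ratio of Kdm5b to Kdm5a accordingly went from 0.852 to 0.194 in the nucleus and from 1.65 to 0.254 in the cytoplasm. Kdm5c, the X-linked relative, was called higher in the cytoplasm (1.55, from 23.5 to 40.2 as deposited). Over the list of H3K4 erasers, 5 of 6 passed the filter, and Kdm5d was at 0 in all 4 columns. Of the 5, 1 was called higher in the nucleus and 3 in the cytoplasm (Kdm5a, Kdm5c, Kdm1b), with 0 lower in both. Among all kept genes 25.8% were higher and 16.2% lower in the nucleus, and 24.2% and 18.6% in the cytoplasm.

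Suv39h1 had the lowest difference in the cytoplasm of the 8. Its values were 26.3 for WT nuclei, 28.3 for null nuclei, 608 for WT cytoplasms and 72.9 for null cytoplasms. Rescaled to the median gene these became 94.3, 47.6, 175 and 39.4, so that both WT values lay above both null values. The relative difference in the cytoplasm was -2.13, a 4.36-fold lower value in null, and -3.04 as deposited. It stayed between -2.15 and -1.77 under the 6 other rescaled settings. In the nucleus it was -0.97, just short of a call, and 0.10 as deposited. Dividing each column by its total without small RNA genes made the nuclear value -1.15, a call.

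Suv39h2, the relative that shares its activity, showed another pattern, with 30.9, 19.8, 179 and 99.8 in the same order. It was called lower in the nucleus (-1.71) and lay at 0.066 in the cytoplasm. The ratio of Suv39h1 to Suv39h2 was 0.849 for WT nuclei and 1.43 for null nuclei. In the cytoplasm it was 3.41 in WT and 0.731 in null, a 4.66-fold lower ratio that no column factor can change. Suv39h1 is X-linked, and its promoter differs from that of Kdm1b in base composition. The window held 11 CpG sites, 51.6% G and C, 2 CCAAT boxes and 1 GC box, at chrX:8074761-8075010, minus strand:
Suv39h1: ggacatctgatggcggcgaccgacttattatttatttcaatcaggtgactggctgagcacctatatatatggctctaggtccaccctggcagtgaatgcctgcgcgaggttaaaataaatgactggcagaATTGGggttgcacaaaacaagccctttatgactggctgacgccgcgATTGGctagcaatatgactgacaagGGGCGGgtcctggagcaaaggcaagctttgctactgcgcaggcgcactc

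CCAAT boxes stood in 34.5% of all windows. Among the other members, Kdm1a and Setdb1 had 1 each and the remaining 5 had 0.

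Ehmt1 and Ehmt2 encode GLP and G9a, which act as a pair to write mono- and dimethylation of H3K9. Their RNAs did not keep 1 ratio. Ehmt1 had 8.70 in WT nuclei, 26.6 in null nuclei, 109.8 in WT cytoplasms and 79.8 in null cytoplasms, with relative differences of 0.50 and 0.43. Ehmt2 had 0.539, 11.4, 22.3 and 22.5 in the same order. The WT nucleus was the low value, and the null nucleus was 6.85-fold higher on the relative scale (2.78; 2.34 to 3.24 over the other rescaled settings that kept the gene). In the cytoplasm the difference was 0.83, and 0.016 as deposited; it passed 2-fold with column totals (1.02) and with scaling on genes of at least 5 in all columns (1.15). The ratio of Ehmt2 to Ehmt1 was 0.0620 for WT nuclei and 0.428 for null nuclei, a 6.90-fold higher ratio, beside 0.203 and 0.282 in the cytoplasms. A stricter filter, at least 1 in all 4 columns, leaves Ehmt2 out because of its WT nucleus value, and at a value so low the size of the fold is uncertain. The longest protein-coding transcript of Ehmt2 in GENCODE M21 had 60.8% G and C, above 96.8% of the 11918 kept genes matched there, while those of the other 7 members lay between percentile 20.2 (Setd2) and 58.8 (Kdm1a). Its promoter window was the single one of the 8 with CACGTG, which it held at 2 places and which stood in 6.04% of all windows, at chr17:34898224-34898462, plus strand:
Ehmt2: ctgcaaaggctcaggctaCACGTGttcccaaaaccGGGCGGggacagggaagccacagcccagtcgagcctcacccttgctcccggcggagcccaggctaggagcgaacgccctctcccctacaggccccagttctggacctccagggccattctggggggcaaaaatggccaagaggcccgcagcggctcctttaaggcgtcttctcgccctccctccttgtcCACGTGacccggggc

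TATAAA, which stood in 13.0% of all windows, was in none of the 8 members' windows. GC boxes were in 7 of them, all but that of Kdm1a, with 7 in Setd2, 2 each in Ehmt1 and Ehmt2 and 1 each in Kdm5b, Setdb1 and Suv39h1 beside the 6 in Kdm1b. Wholly before the first annotated base stood 4 of those in Setd2 and 1 each of those in Ehmt1, Ehmt2 and Kdm1b.

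Setdb1, which is brought to transposable elements by TRIM28, had 43.5 in WT nuclei, 77.1 in null nuclei, 399.8 in WT cytoplasms and 349 in null cytoplasms. Its relative differences of -0.26 and 0.70 lay within 2-fold. In the cytoplasm it reached 1.06 when the columns were scaled on genes of at least 5 in all of them. In RefSeq Setdb1 overlaps Cers2, listed in the table under the older symbol Lass2 with 20.6, 70.7, 460.1 and 237. Its relative Setdb2 had 8.39, 9.17, 166 and 66.0 (-0.92 and -0.41). The 7 H3K9 writers together had 1 called higher and 1 lower in the nucleus (Ehmt2 and Suv39h2) and 0 higher and 1 lower in the cytoplasm, with medians of -0.37 and 0.066. The shares of all kept genes were 25.8% higher and 16.2% lower in the nucleus, and 24.2% and 18.6% in the cytoplasm. Whether the compartments differ was not tested.

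Setd2 had 11.4 in WT nuclei, 30.0 in null nuclei, 114 in WT cytoplasms and 90.6 in null cytoplasms. Its relative differences were 0.30 and 0.56, both within 2-fold. Of the other H3K36 writers, Nsd1, which in oocytes makes H3K36 dimethylation, was called lower in both compartments (-1.94 and -1.67), with 12.9, 6.71, 121 and 19.0. Ash1l was called higher in the cytoplasm (1.18, from 15.7 to 21.3 as deposited), and Whsc1 and Whsc1l1 were not called in either. Dnmt3a, the DNA methyltransferase that reads H3K36 methylation, was called lower in the cytoplasm (-1.50), from 465 in WT to 86.7 in null.

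Nucleus and cytoplasm were then compared within a genotype. As deposited all 8 members had a higher value in the cytoplasm in both genotypes, a direction that 13660 of 14240 kept genes shared in WT and 12924 in null. Relative to the median gene, Ehmt2 was called lower in WT nuclei than in WT cytoplasms (-1.34), and 0 members were called higher, where 7.46% of kept genes were lower and 9.73% higher. In null, Kdm1b was called lower in the nucleus (-1.09) and 0 members higher (8.83% and 12.4% of kept genes). The nucleus minus cytoplasm difference was called higher in null than in WT for Ehmt2 (1.95) and Suv39h1 (1.15) and lower for 0 members (16.9% and 15.3% of kept genes). With column totals as the scale, the Suv39h1 value was 0.66 and its call ended. It was nearest to a lower call for Setdb1 (-0.97) and Kdm1a (-0.82). Both were called lower with column totals (-1.46 and -1.30, making 1 higher and 2 lower), and Setdb1 also with quantile normalization (-1.02). As deposited both were instead at least 2-fold higher in null (1.01 and 1.13). So were all 8 members, where the median of all kept genes was 1.70. These differences share columns with those of null against WT and add no evidence of their own: that of Ehmt2 rests on its low WT nucleus value and that of Suv39h1 on the larger difference in the cytoplasm.

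**Figure D4:**
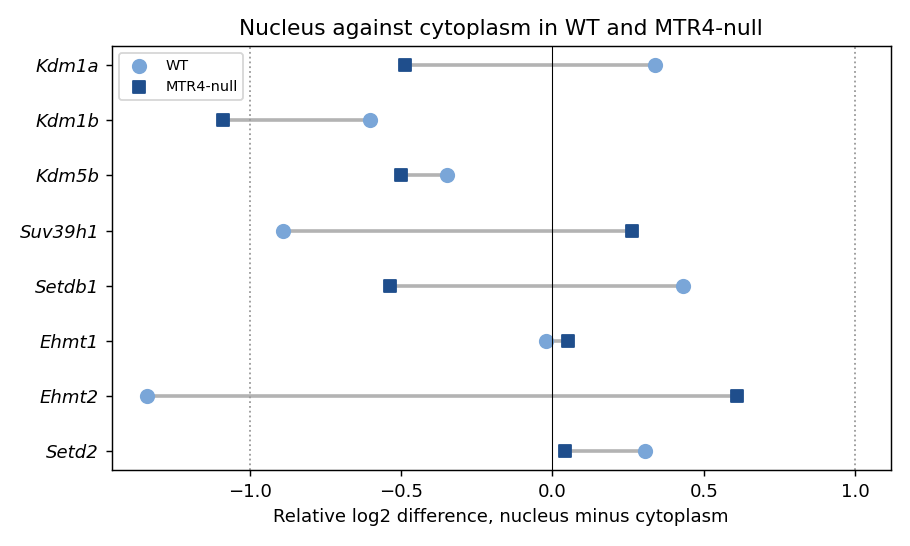
Relative log2 difference of nucleus minus cytoplasm for each enzyme in WT (circles) and MTR4-null (squares), 1 value per genotype, joined by a line. Dotted lines mark 2-fold. The longest line is that of Ehmt2, from -1.34 in WT to 0.61 in null, and the shortest that of Ehmt1, from -0.020 to 0.050.

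Around the 8 enzymes stood 12 lists of related genes, with 90 other genes that passed the filter. In the nucleus 18 of the 90 were called higher and 6 lower (6.67%), with a median of 0.049, where 25.8% of all kept genes were higher and 16.2% lower. In the cytoplasm 26 (28.9%) were higher and 7 (7.78%) lower, with a median of 0.38, where 24.2% of all kept genes were higher and 18.6% lower. The counts of single lists that follow are to be read against these shares. The same 90 as deposited gave 43 higher and 0 lower for nuclei, and 7 higher and 29 lower for cytoplasms. Among all kept genes as deposited 46.3% were higher and 3.69% lower for nuclei, and 14.9% and 43.7% for cytoplasms.

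The H3K4 writers hold the MLL and SETD1 catalytic subunits. Of the 6 that passed, 2 were called higher in the nucleus, the meiotic writer Prdm9 (1.47) and Mll1 (1.40), and in the cytoplasm Prdm9 (1.13). Mll1 had 0.0208 and 0.261 in WT nuclei and cytoplasms and 1.09 and 1.76 in the null columns, so it passed the filter only through the columns where it is high and had to differ. Prdm9 had 0.763 in WT nuclei, so the size of its nuclear fold is uncertain. Of the 12 subunits of the COMPASS complexes that these enzymes work in, Paxip1 (1.83 and 1.38) and 2900092E17Rik, the older symbol of Pagr1a (1.96 and 1.11), were called higher in both compartments. Those genes encode 2 proteins that bind each other in the MLL3 and MLL4 complexes. Kdm6a was called lower in the nucleus (-1.54). Wdr5, Rbbp5, Ash2l and Dpy30, the core of the complex, lay between -0.87 and 0.91 in both.

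Of 11 partners of the KDM1 erasers, 2 were called higher in the nucleus and 4 in the cytoplasm. Rcor3, a CoREST protein that anchors KDM1A, was called higher in both (3.32 and 1.23), with 0.159 in WT nuclei and 8.71 in null nuclei. At so low a WT value the size of its nuclear fold is uncertain. The BHC80 gene Phf21a was also higher in both (1.06 and 1.08). Zmym2 (1.44) and Rcor2 (1.10) were higher in the cytoplasm. Glyr1, which encodes a cofactor of KDM1B, was not called in nucleus or cytoplasm (-0.76 and -0.59).

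The H3K9 erasers had 3 of 10 called higher and 0 lower in the nucleus (Kdm4b 2.15, Kdm3b 1.47, Kdm4d 1.08), close to the 25.8% of all kept genes for higher calls, and 4 higher and 1 lower in the cytoplasm. Those were Jmjd1c (1.66), Phf2 (1.63), Kdm3b (1.37) and Kdm4c (1.36), and Jhdm1d, now Kdm7a (-1.53). The medians were 0.27 and 0.72. In WT nuclei Kdm4b had 0.954, Kdm3b 1.07 and Kdm4d 0.142, so the sizes of their nuclear folds are uncertain. Among 15 partners and readers of H3K9 methylation, the HP1 gamma gene Cbx3 was higher in both (1.37 and 2.14), as was D14Abb1e, now Tasor (1.03 and 1.22), a subunit of the HUSH complex that works with SETDB1. Zfp644, which encodes a zinc finger partner of EHMT1 and EHMT2, was higher in the cytoplasm (3.38, from 13.6 to 92.9), as was Cdyl2 (1.56). Cbx1, the HP1 beta gene, was called lower there, at the 2-fold line (from 1033 to 274). The SETDB1 partners Trim28 (0.57 and 0.75) and Atf7ip (-0.77 and -0.48) were not called.

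Of the 2 H3K36 erasers, Kdm2a was higher in both (1.47 and 1.64) and Kdm2b lower in the nucleus (-1.69). Of 12 readers of H3K36 methylation, Phf19 was higher in both (1.57 and 2.04), Psip1 (1.55) and Brpf1 (1.09) were higher in the cytoplasm, and Hdgfrp2 (-1.21) was lower there beside Dnmt3a. The H4K20 writers Suv420h1 (3.11 and 4.82) and Suv420h2 (2.92 and 1.67) were higher in both, whereas Setd8 and the H3K79 writer Dot1l were not called. Suv420h1 had 30.5 in WT nuclei, 565 in null nuclei, 22.4 in WT cytoplasms and 387 in null cytoplasms. Suv420h2 and Phf19 had only 0.716 and 0.461 in WT nuclei, so the sizes of their nuclear folds are uncertain.

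Histone methyltransferases draw on S-adenosylmethionine, and 10 of 12 genes of its supply and use passed the filter. The synthetase gene Mat2a was called higher in the nucleus (1.12), and Mat2b, which encodes its regulatory subunit, was called lower (-1.64). Mat1a was called lower in the cytoplasm (-1.92). Amd1, which consumes S-adenosylmethionine for polyamines, was higher in the cytoplasm (1.80).

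For each member the kept gene most like it was sought by Euclidean distance over the 4 relative log2 values. These were Diras2 for Kdm1a (0.13), Pcbd1 for Kdm1b (0.37), Car14 for Kdm5b (0.085) and Zrsr2 for Setd2 (0.15). For the H3K9 writers they were Gm561 for Setdb1 (0.19), Derl2 for Ehmt1 (0.12), 4933422H20Rik for Ehmt2 (0.11) and 1810055G02Rik for Suv39h1 (0.23). Within a distance of 0.5, Kdm1a had 73 genes and Setd2 63, whereas Ehmt2 had 8 and Kdm1b 1. Likeness over 4 values is a description of these columns only.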

How the data were processed

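Per the submitters' processing notes the tools were TopHat2 2.1.1 with Cufflinks 2.2.1 on the build mm9; their roles and settings are not stated. The deposited table was FPKM by its name, but its 4 columns share no common scale, so the values were treated as a score. How the authors combined libraries into columns is not stated, and the depth is unknown, so no interval could be set. A limma fit was planned only for the case of 1 column per library.

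Columns were rescaled by the median of their ratios to the per-gene geometric mean, over 13328 kept genes above 0 in all columns (divisors 0.279, 0.594, 3.47 and 1.85 for WT nucleus, null nucleus, WT cytoplasm and null cytoplasm), with pandas 2.3.3. The procedure was also run on simulated data in which few genes changed, equally many up and down. In the real columns 25.8% of kept genes were called higher and 16.2% lower between nuclei. That run therefore does not test whether the median gene is unchanged here. The members and lists were chosen with earlier results of these data known. Named beside the members are the members of each list called with the largest differences, at most 4 per comparison, plus relatives, complex partners and overlapping genes picked after values were seen. Of 103 related symbols 102 were found; values of 2 of them are not reported here. Promoters and gene overlaps are from RefSeq (GRCm38.p6), transcripts from GENCODE M21; neither is the authors' build.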

Additional observations from a re-analysis of the deposited data

How the results depend on the processing

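No paired analysis was possible because the table has no column for a single library, and leaving out replicates was not run for the same reason. As deposited, 4 members were called for null against WT in the nucleus, all higher, and 1 in the cytoplasm, lower. Among all kept genes 46.3% were higher and 3.69% lower in the nucleus, and 14.9% and 43.7% in the cytoplasm. For nucleus against cytoplasm 8 members were lower in WT and 7 in null, as were 12990 and 10235 of the 14240 kept genes. The nuclear share was higher in null for all 8 members and for 10204 kept genes. Of the 90 related genes 43 were called in the nucleus, all higher, beside that 46.3%. Here the scale of the columns sets the counts. In the nucleus, null against WT, 2 members were called with quantile normalization, with totals without small RNA genes and with scaling on genes of at least 5 in all columns; the last gave 4 in the cytoplasm. That scaling moved the median of all kept genes to 0.37 between nuclei and 0.36 between cytoplasms, and column totals moved it to between -0.33 and 0.28. At 1.5-fold the counts were 4, 4, 3, 2 and 4 in the order of the comparisons, with 45 and 50 related genes in nucleus and cytoplasm. The shares of all kept genes at 1.5-fold were not computed, so these counts cannot be set against the 2-fold shares. Nor were such shares computed for the other rescaled settings. With at least 1 in all 4 columns, which leaves out Kdm5b and Ehmt2, 0 members were called for WT nucleus against cytoplasm and 1 for the nuclear share, and the median percentile was 56.2 in the null nucleus and 58.6 in the null cytoplasm. Without a filter it was 80.6, 79.3, 78.7 and 79.3 in WT nucleus, null nucleus, WT cytoplasm and null cytoplasm. Of the calls for single members, 2 were lost in settings that kept the gene, and none turned direction. The lost calls were 1 as deposited (Kdm1b, cytoplasm) and 1 with column totals (Suv39h1, nuclear share). The calls of Ehmt2 (nucleus, WT nucleus against cytoplasm and nuclear share) could not be scored with at least 1 in all 4 columns, which leaves it out. Under that filter the member called in the nucleus was Kdm1b (1.10). As deposited, 20 member differences that were not called on the relative scale had the opposite sign.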
